A study of Zea mays with 4 samples.

Results

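The 165 genes described here form the shoulder of the abundance curve of the maize root tip: they are the transcripts that were plentiful without being among the very highest. They were chosen by level in 4 RNA-seq libraries. Counts were scaled to CPM, which is counts per 1000000 of a library's total, and genes with a mean of 500 CPM or more were kept. The 25 with the highest means were dropped, and so were 3 further genes, sh1, hon110 and hon102. Of 48174 genes in the table, 193 reached the limit and 165 remained, at places 26 to 193 by mean CPM. Since their level chose them, all levels below are descriptions with no test. Their spread between replicates was not used in the choice, and only that was tested.

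All 4 libraries come from 1 group of B73, the inbred line of the maize reference genome. Seedlings were 3 days old and had been raised at 28 °C in constant light. They spent 2 h in gently swirled water, after which the last 1 mm of each primary and seminal root was cut off, and both root types were pooled and cannot be told apart. Ribosomal RNA was removed from total RNA before directional sequencing. There is no group kept out of water, so no value here shows a response to it. The labels call the libraries biological replicates without naming separate seed lots, so the tests measure only the spread between these 4 samples. Library totals were 26131723, 24246104, 26829395 and 23385589 counts, and the values of the 165 genes lay between 9725 and 31618 counts. Of the markers for dividing root tips, the replication genes pcna1 and MCM6 stood at 112 to 135 and 110.0 to 131 CPM, SCR, a patterning gene of the ground tissue, at 37.3 to 43.1 CPM and the auxin carrier gene PIN1a at 189 to 206 CPM. Of 3 leaf markers, ssu1, for a Rubisco subunit, had no count and CAB1 stayed at 0.825 CPM or less, while ME1, for a malic enzyme, was present at 11.5 to 16.1 CPM in the 4 libraries. The seed markers z1A1_2 and bz15 reached at most 0.522 and 0.701 CPM, and the xylem markers cesa11 and lac3 at most 0.497 and 4.51 CPM.

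A growing root tip divides and enlarges its cells, and for both it has to make ribosomes, proteins, membranes and wall. Genes of translation, sugar breakdown and the cytoskeleton are therefore usually among the most transcribed in such tissue, and the ribosome itself is built from protein subunits made in the cytosol and RNA made and modified in the nucleolus. Small nucleolar RNAs guide that modification.

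The 165 genes took 11.8 ± 0.0663% of all counts (SD, n = 4), against 5.68 ± 0.133% for the 25 highest genes and 38.2 ± 0.0379% for the 2009 genes of 100 to 500 CPM. They are 0.343% of the genes in the table. Their share was 11.8, 11.8, 11.8 and 11.9% in replicates 1 to 4, so no library stood out. Mean levels spanned a factor of 2.41, from LOC100272648 at 1207 ± 32.5 CPM to LOC103647713 and LOC100283246 at 501 ± 24.1 CPM and 501 ± 6.41 CPM, and their median was 675 CPM. Of the 165, 18 had a mean above 1000 CPM, 93 lay between 600 and 1000 CPM and 54 below 600 CPM. CPM is not divided by transcript length, so the order of genes is one of reads, not of molecules.

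**Figure D1:**
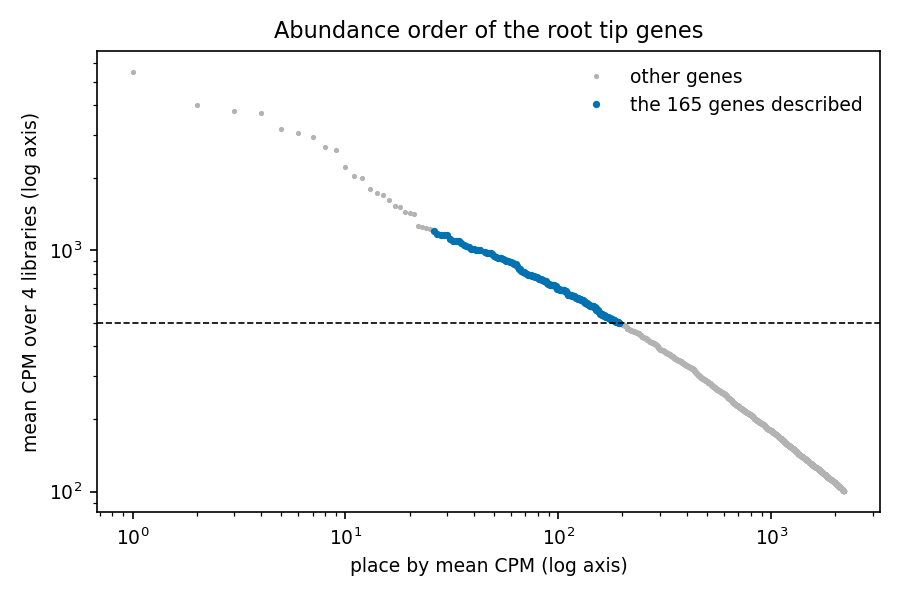
Mean CPM over the 4 libraries against place in the abundance order, both on log axes, for the highest genes of the table as points, with the 165 genes in blue and the limit of 500 CPM as a dashed line. The curve runs on without a step at either edge of the blue stretch, from 1207 CPM at place 26 to 501 CPM at place 193.

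Both edges cut through a smooth order. Above, TUA2 at place 25 had 1223 ± 30.5 CPM and LOC100272648 at place 26 had 1209.95, 1219.9, 1162 and 1238 CPM in replicates 1 to 4, and these ranges overlap. Just inside the lower limit stood LOC100194265 with 503 ± 22.1 CPM, and just outside it LOC103633515, LOC100191975 and the long noncoding RNA gene LOC103646388 with 499 ± 10.4 CPM, 499 ± 28.0 CPM and 494 ± 53.6 CPM. In every single library 147 of the 165 reached 500 CPM, and 18 fell short in 1 library or more. Conversely 27 genes outside the set reached 500 CPM in some library. Within the order of each library, 142 of the 165 kept to places 26 to 193.

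By annotation 161 of the genes are protein coding, 2 are long noncoding RNA genes and 2 are small nucleolar RNA genes. A gene name that places the gene in one of 18 functional classes was at hand for 63, which took 4.70 ± 0.0330% of counts, and 98 had none, with 6.86 ± 0.0544%. The 4 noncoding genes took 0.276 ± 0.0237%. Shares by class therefore count only named genes and are lower bounds for each function.

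**Figure D2:**
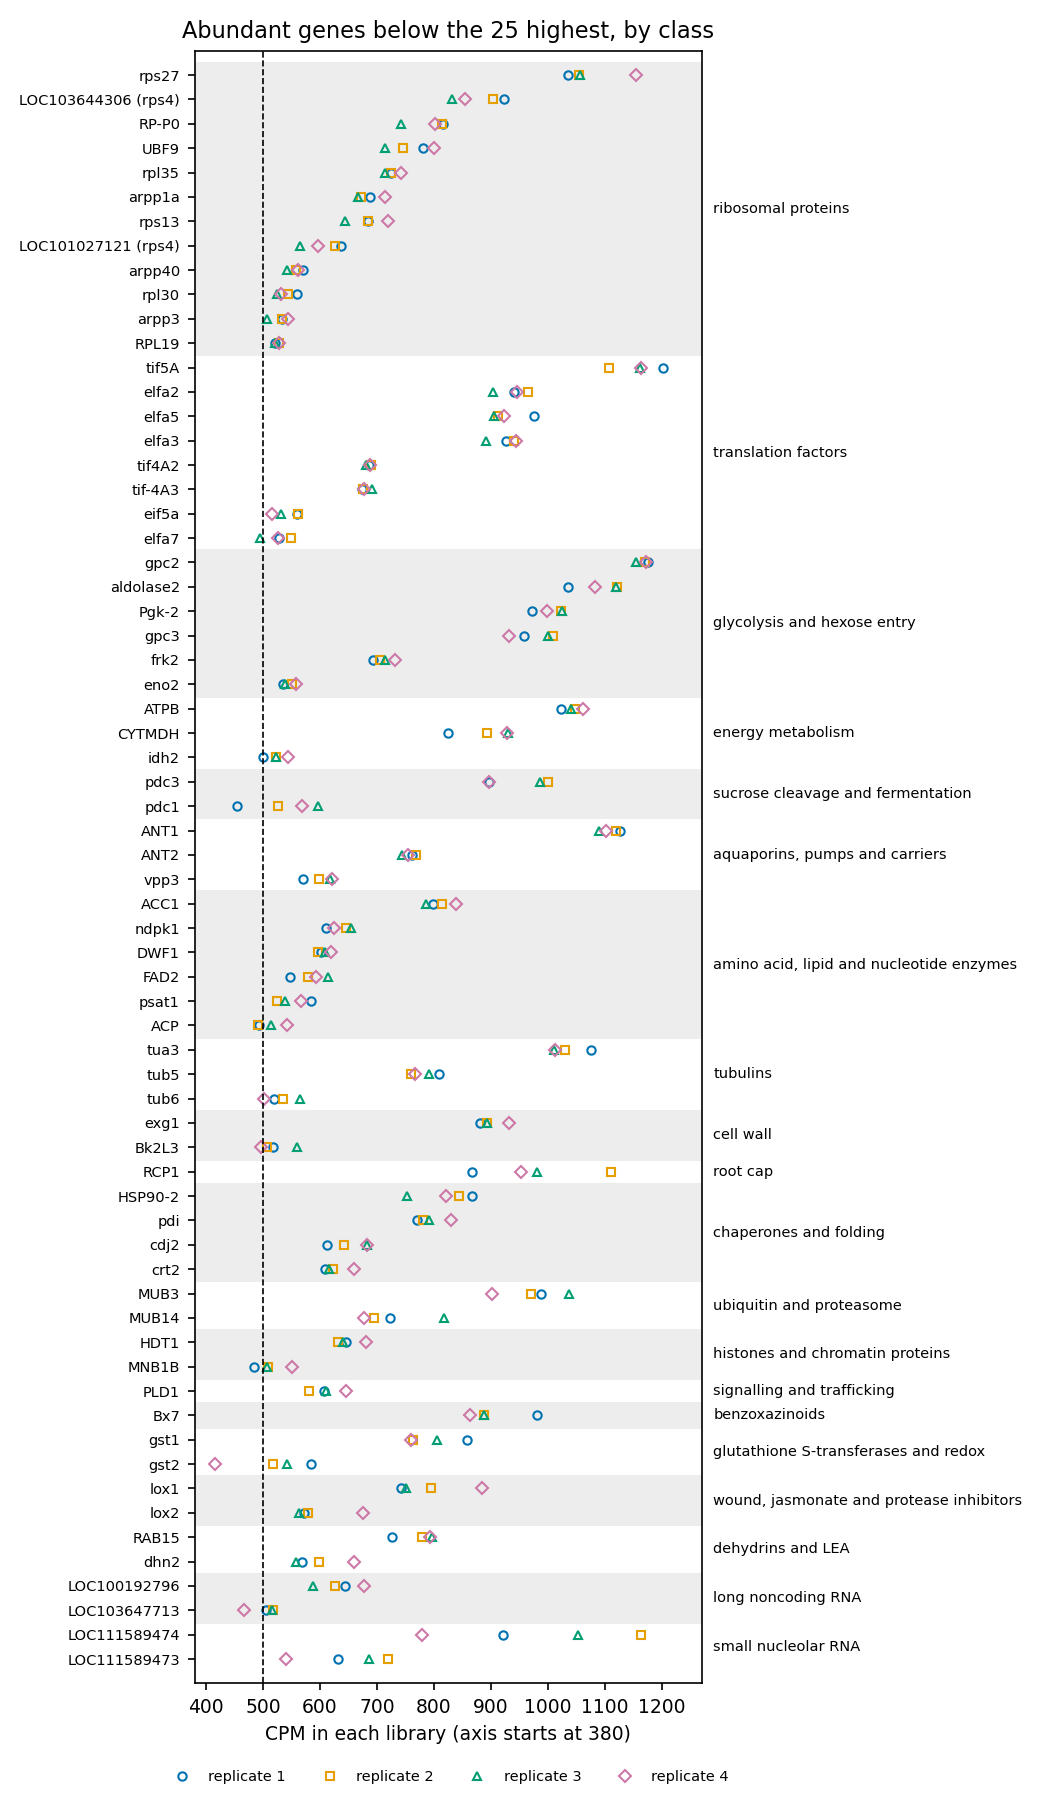
CPM in each of the 4 libraries (symbols) for the genes with a class name that are reported here and the 4 noncoding genes, grouped by class with shading, with the limit of 500 CPM dashed and the axis starting at 380 CPM. The symbols of most genes sit close together, while those of LOC111589474, LOC111589473, gst2, pdc1 and RCP1 are far apart.

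Genes of protein synthesis formed the largest named class. Together, 13 genes for ribosomal proteins held 0.895 ± 0.0271% of counts (SD, n = 4). All 34 ribosomal protein genes of the name list reached 1 CPM in each library (called detected below), and these 13 held 77.8% of the list's counts. None of the list was among the 25 highest genes. rps27, for a protein of the small ribosomal subunit, stood at 1036, 1054, 1056 and 1155 CPM in replicates 1 to 4. It was highest in replicate 4, with the other libraries close together.

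A pair of genes carries the name rps4, also a small subunit protein. LOC103644306 stood at 923, 904, 831 and 855 CPM and LOC101027121 at 637, 627, 565 and 596 CPM, and both were highest in replicate 1 and lowest in replicate 3. The split of reads between them depends on how alike their sequences are, which was not examined. RP-P0, the base of the acidic stalk on which elongation factors act, stood at 815, 814, 743 and 801 CPM, with replicate 3 lowest. The stalk proteins arpp1a and arpp3 stood at 685 ± 21.0 CPM and 529 ± 15.4 CPM. UBF9, for ubiquitin fused to a ribosomal protein, had 760.3 ± 38.2 CPM. The small subunit gene rps13 had 683 ± 30.6 CPM, and arpp40, named as an acidic ribosomal protein, 558 ± 11.5 CPM. The large subunit genes rpl35, rpl30 and RPL19 had 727 ± 11.7 CPM, 539.9 ± 15.5 CPM and 524 ± 4.62 CPM. Replicate 3 was the lowest library for 11 of the 13, against 72 of all 165 genes (43.6%) and 36.1% of the genes of 100 to 500 CPM. Among the 21 ribosomal protein genes of the list below 500 CPM, 11 were lowest in replicate 3 and 12 highest in replicate 4. The class share was 0.856% in replicate 3 and 0.898 to 0.917% in the others. Replicate 3 also had the largest share in the 25 highest genes, 5.86% against 5.57 to 5.72%, and the part of that in the lower ribosomal share was not tested.

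The 8 translation factor genes took 0.638 ± 0.00946% of counts, out of 14 on the list, all detected. tif5A, for initiation factor 5A, which helps ribosomes through difficult stretches, stood at 1202, 1108, 1161 and 1163 CPM. The second gene of that name, eif5a, had 542 ± 22.5 CPM. The elongation factor 1 alpha genes elfa2, elfa5, elfa3 and elfa7, whose proteins bring aminoacyl-tRNA to the ribosome, had 939 ± 25.6 CPM, 929 ± 31.6 CPM, 926 ± 23.9 CPM and 525 ± 22.5 CPM. The ranges of elfa2, elfa5 and elfa3 overlap, and the place of elfa5 changed between libraries, so their full order was not resolved. elfa2 lay above elfa3 in every library, though only by 946 against 944 CPM in replicate 4. Counts of elfa2 and elfa3 were not whole in 2 and 3 libraries, so their separate levels are uncertain. The RNA helicase genes tif4A2 and tif-4A3 stood at 686, 689.7, 681 and 688 CPM and 674, 675, 691 and 676 CPM. Both differed little across the libraries, and tif4A2 had the smallest relative spread of all 165 genes.

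Sugar breakdown was the next class by share. The 6 genes of glycolysis and hexose entry took 0.549 ± 0.00943% of counts, and 3 more of the 15 on the list were among the 25 highest genes. The glyceraldehyde-3-phosphate dehydrogenase genes gpc2 and gpc3 stood at 1175, 1169.6, 1154 and 1173 CPM and 958, 1009, 1001 and 932 CPM. gpc2 was nearly level over the libraries, while gpc3 was high in replicates 2 and 3 and low in replicates 1 and 4. aldolase2, for the enzyme that splits fructose bisphosphate, stood at 1034, 1122, 1119 and 1082 CPM. Pgk-2, for phosphoglycerate kinase, had 1004 ± 24.6 CPM, frk2, for a fructokinase, 711 ± 15.9 CPM and eno2, for enolase, 546 ± 10.3 CPM. Replicate 1 was lowest for 4 of these 6 genes, against 27.9% of all 165. Of the 5 detected genes of the list below the limit, 3 were lowest in replicate 1 and 2 in replicate 3. The 3 are those of 100 to 500 CPM, a range in which replicate 1 was lowest for 20.1% of all genes.

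Fermentation showed the same library at the bottom for one of its genes. Pyruvate decarboxylase makes acetaldehyde from pyruvate, the first step to ethanol, and its genes pdc3 and pdc1 were both in the set. pdc3 stood at 897, 999.6, 986 and 896 CPM, high in replicates 2 and 3 and low in the others. pdc1 stood at 454, 526, 597 and 569 CPM, which put replicate 1 alone below the 500 CPM limit. A further gene of the name PDC, LOC542651, had only 2.86 ± 0.728 CPM. The alcohol dehydrogenase gene adh1, below the limit, stood at 399, 498, 491 and 505 CPM, and adh2 at 156, 255, 177 and 182 CPM. Of the 7 detected genes of this list below the limit, 4 were lowest in replicate 1, 1 in replicate 2 and 2 in replicate 4. The 4 are those of 100 to 500 CPM: adh1, adh2 and the invertase genes ivr2 and incw1.

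Energy metabolism and carriers were led by ATPB and ANT1. ATPB, for a catalytic subunit of the mitochondrial ATP synthase, stood at 1024, 1048, 1040.2 and 1061 CPM. CYTMDH, a cytosolic malate dehydrogenase gene, had 824, 892, 930.3 and 928 CPM and idh2, for an isocitrate dehydrogenase, 522 ± 17.7 CPM. All 3 were lowest in replicate 1. ANT1 and ANT2, for the carriers that exchange ATP for ADP across the inner mitochondrial membrane, stood at 1126, 1119, 1090.2 and 1102 CPM and 762, 769, 743 and 754 CPM. The coefficient of variation (CV, the SD over the mean of the 4 libraries) was 1.46% for ANT1 and 1.45% for ANT2, so both were steady. vpp3, for a proton-pumping pyrophosphatase of the vacuole, had 602 ± 23.5 CPM. No aquaporin gene of the name list reached the limit.

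Biosynthesis was present through 6 genes with 0.370 ± 0.00679% of counts. ACC1, for acetyl-CoA carboxylase, the entry to fatty acid synthesis, stood at 799, 814, 786 and 839 CPM. It was highest in replicate 4 and lowest in replicate 3. The lipid genes ACP, for an acyl carrier protein, and FAD2, for an oleate desaturase, had 510.3 ± 23.9 CPM and 583 ± 27.4 CPM. DWF1, for a reductase of sterol and brassinosteroid synthesis, had 606 ± 9.67 CPM. ndpk1, for nucleoside diphosphate kinase, had 634 ± 19.8 CPM and psat1, for phosphoserine aminotransferase of serine synthesis, 554 ± 26.8 CPM. ndpk1 shares an older gene identifier with 2 other genes of the table, which leaves its level uncertain.

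Of cytoskeleton and wall genes, the set held 3 tubulin and 2 cell wall genes. The alpha-tubulin gene tua3 stood at 1076, 1029.8, 1010.3 and 1012 CPM, highest in replicate 1. The beta-tubulin genes tub5 and tub6 had 782 ± 22.4 CPM and 531 ± 27.1 CPM. These 3 held 26.8% of the counts of the 14 tubulin genes on the list, 3 others being among the 25 highest genes. exg1, named for an exoglucanase, stood at 899.7 ± 22.5 CPM and Bk2L3, of the brittle stalk family of wall proteins, at 520.4 ± 27.1 CPM. These 2 held 10.2% of the counts of the 47 cell wall genes on the list, 2 others being among the 25 highest genes. No named actin gene reached 500 CPM.

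RCP1, named for a root cap protein, was both abundant and uneven. It stood at 866, 1111, 980.5 and 952 CPM, lowest in replicate 1 and highest in replicate 2, with a CV of 10.4%. RCP2, the other gene of that name and far below the limit, stood at 106, 176, 139.8 and 164 CPM, with the same lowest and highest library. In RNA from whole tips, fewer cap cells and less of this RNA per cell cannot be told apart.

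The 4 genes of protein folding took 0.290 ± 0.00675% of counts. HSP90-2, for a chaperone of the HSP90 family, stood at 867, 844, 752 and 821 CPM, lowest in replicate 3. pdi, for a disulfide isomerase of the endoplasmic reticulum, stood at 770.2, 781, 791 and 829 CPM and crt2, for the calcium-binding chaperone calreticulin, at 627 ± 22.6 CPM. Both were highest in replicate 4. cdj2, of the DnaJ family of HSP70 partners, had 655 ± 34.1 CPM. Of the 35 genes on the chaperone list 28 were detected in every library.

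The polyubiquitin genes MUB3 and MUB14 stood at 987, 971, 1038 and 902 CPM and 722, 694, 818 and 678 CPM. Both were highest in replicate 3 and lowest in replicate 4. They share an older gene identifier, and counts of both were not whole in 2 libraries, so the division of reads between them is uncertain. MUB6, another polyubiquitin gene below the limit, stood at 446, 467, 496 and 406 CPM with the same order of highest and lowest. Of chromatin, HDT1, for a plant-specific histone deacetylase, had 649.6 ± 22.0 CPM and MNB1B, for an HMG box protein that bends DNA, 513 ± 27.7 CPM.

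Among genes of defence and stress, the lipoxygenase genes lox1 and lox2 shared their highest library. Lipoxygenases add oxygen to polyunsaturated fatty acids and so supply the precursors of oxylipins. lox1 stood at 742, 794, 751 and 884 CPM and lox2 at 572, 579.8, 564 and 676 CPM. Replicate 4 was the highest library for both, and in each it lay above the next library by more than the range of the other 3. The genes are neighbours in the gene table, and whether reads were shared between them was not examined beyond lox2 having values that are not whole in 2 libraries. aos1, for the allene oxide synthase that follows a lipoxygenase on the way to jasmonate, stood at 479, 418, 479 and 509.8 CPM, also highest in replicate 4. Among the other 21 detected genes of this list, 1 was highest in replicate 4.

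The glutathione S-transferase genes gst1 and gst2, whose enzymes couple glutathione to reactive compounds, stood at 858, 763, 806 and 759.8 CPM and 584, 517, 542 and 416 CPM. Both were highest in replicate 1 and lowest in replicate 4, and gst2 ranged over a factor of 1.41. Bx7, for an O-methyltransferase of benzoxazinoid synthesis, stood at 980.2, 888, 888 and 863 CPM, with the same highest and lowest library. The rest of their lists mostly differed in the highest library, while replicate 4 was also most often the lowest for the glutathione and redox list. Of 32 detected glutathione and redox genes below the limit, 4 were highest in replicate 1, 16 in replicate 3, and 15 were lowest in replicate 4. Of 7 such benzoxazinoid genes, 1 was highest in replicate 1, 5 were highest in replicate 4 and 1 was lowest there. dhn2, a dehydrin gene, stood at 568, 598, 557 and 659.8 CPM, highest in replicate 4. RAB15, named for responsiveness to abscisic acid, had 774 ± 32.4 CPM, and its place in the dehydrin list rests on its name. PLD1, for a phospholipase D, had 611 ± 26.4 CPM.

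The noncoding genes included the most variable one of the set. The small nucleolar RNA gene LOC111589474 stood at 922, 1163, 1053 and 779.8 CPM, a 1.49-fold range. LOC111589473, its neighbour in the gene table and also a small nucleolar RNA gene, stood at 632, 719, 685 and 540.5 CPM. Both had the order replicate 2, 3, 1 and 4 from high to low, and in both libraries 1 and 2 had counts that were not whole. Of the 12 small nucleolar RNA genes of 100 to 500 CPM, 5 were highest in replicate 2 and 5 in replicate 3, and 6 were lowest in replicate 1 and 6 in replicate 4. Of the 212 detected genes of the list below the limit, 116 were highest in replicate 1, while 92 were lowest in replicate 4 and 86 in replicate 3. Their summed share was 0.558, 0.598, 0.590 and 0.528% in replicates 1 to 4, which is the order of the pair above. The long noncoding RNA genes LOC100192796 and LOC103647713 stood at 643, 626, 587 and 678 CPM and 505, 518, 515 and 466 CPM. They went opposite ways in replicate 4, where the first was highest and the second lowest. Each overlaps another gene of the table, a protein-coding one of 0.474 CPM for LOC100192796 and a small nucleolar RNA gene of 6.87 CPM for LOC103647713, and the sources used here do not say whether counting used strand.

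The 98 genes with no class name ranged from 501 to 1207 CPM and included 5 of the 10 highest of the set. LOC100272648 was followed by LOC100286309 at 1171, 1160.4, 1136 and 1181 CPM, LOC103650330 at 1121, 1144, 1159 and 1196 CPM, LOC100284917 at 1099, 1096, 1032 and 1141 CPM and LOC100274298 at 1117, 1062, 1089 and 1091 CPM. Each was at least 1000 CPM in every library. What these genes encode is not given in the tables used here. Of all 165, 28 carried only a number and no synonym.

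These genes differed little between replicates. Their median CV was 3.70%, with quartiles of 2.61 and 5.02% and extremes of 0.538 and 16.9%. Counting error alone gives a median of 0.768% at these counts, so most of the spread lay beyond it. The median CV was 3.93% for genes of 100 to 500 CPM and 4.76% for the 25 highest, a description with no test. The CV was above 10% for 6 of the 165 and under 2% for 26. The median ratio of the highest to the lowest library was 1.09.

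By chi-square, with Poisson error as the expectation and Benjamini-Hochberg adjustment over 22752 genes, 152 of the 165 varied beyond counting error (92.1%). The background was 25.7% of all tested genes and 69% of those of 100 to 500 CPM. The test detects smaller spreads at higher counts, so the larger share does not show that these genes vary more. The count was 123 without replicate 3. The 13 that did not pass were among the steadiest, including tif4A2 (CV 0.538%, adjusted chi-square p = 0.839), gpc2 (0.792%, p = 0.535), RPL19 (0.881%, p = 0.440), LOC100384278 (0.918%, p = 0.681) and LOC103650429 (1.06%, p = 0.632), as well as ANT1 and ANT2.

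**Figure D3:**
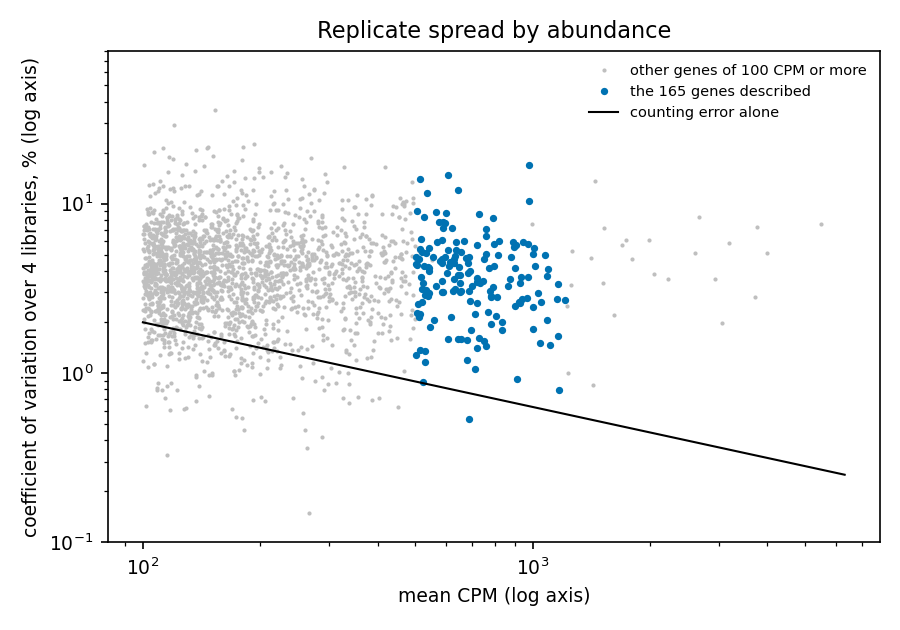
CV over the 4 libraries against mean CPM, both on log axes, for all genes of 100 CPM or more, with the 165 genes in blue and the line giving the CV that counting error alone would produce. The blue points spread from 0.538 to 16.9% and most lie well above the line.

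Against genes of the same abundance no gene of the set passed the test. With edgeR's quasi-likelihood dispersions compared with their abundance trend, 0 of the 165 passed an adjusted p of 0.05 (background 0.0396% of 22752 genes). At an unadjusted p below 0.05 there were 11 of 165 (6.67%, background 5.94%), which is near the background. DESeq2 marked 3 of the 165 as dispersion outliers, LOC111589474, LOC100284707 and gst2 (1.82%, background 0.608% of 32095 genes). These 3 also had the smallest p in edgeR. The DESeq2 background covers genes at all count levels, and a share at equal counts was not computed. The dispersion of LOC111589474 was 16.2 times its trend (edgeR adjusted p = 0.158, range over the alternatives 3.6e-05 to 0.635). That of LOC100284707 was 11.7 times (edgeR adjusted p = 0.262, range 0.000768 to 0.997) and that of gst2 11.3 times (edgeR adjusted p = 0.273, range 0.00128 to 0.992). When all genes with a count were kept, 5 genes passed, these 3 with LOC111589473 and pdc1, and without replicate 3 LOC111589474 and gst2 passed.

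LOC100284707 has no class name and stood at 556, 559, 740.2 and 571 CPM, so replicate 3 lay apart from 3 libraries that were close together. RCP1, LOC100273311, lox2, MUB14 and LOC103652891 followed pdc1 and LOC111589473 in order of p, with edgeR adjusted p of 0.627 to 0.826. LOC100273311 stood at 505, 573, 628 and 559 CPM, highest in replicate 3, and LOC103652891 at 472, 570.5, 515 and 552 CPM, highest in replicate 2. Both were lowest in replicate 1. These genes differed in which library was high. How far 1 library adds to the spread of the whole set was not tested.

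**Figure D4:**
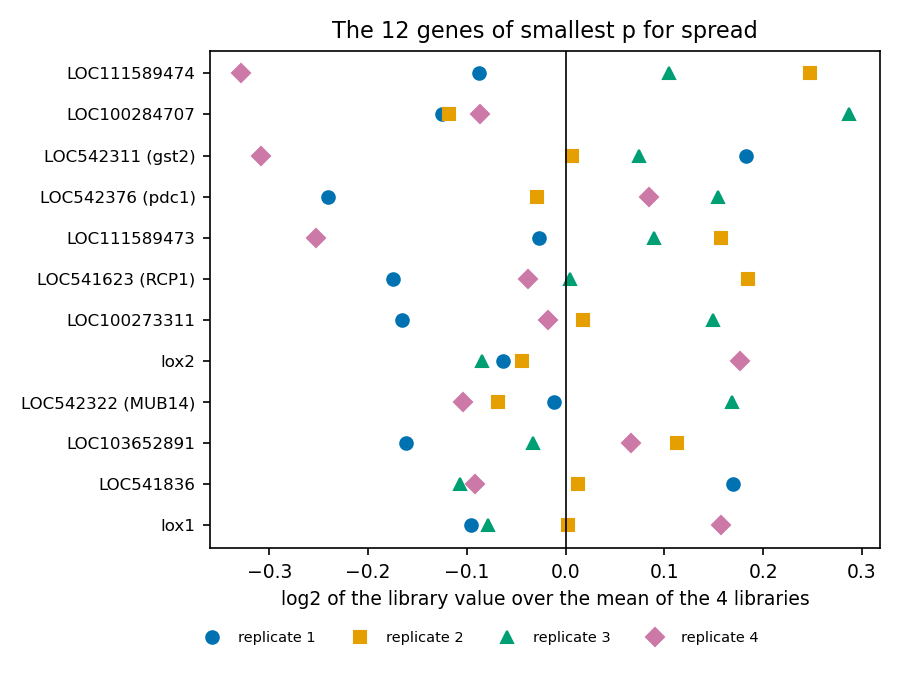
Log2 of each library's CPM over the mean of the 4 libraries for the 12 genes of smallest p for spread, 1 symbol per library, with 0 marking the mean. Replicate 4 is lowest for LOC111589474, gst2, LOC111589473 and MUB14 and highest for lox1 and lox2. Replicate 1 is lowest for pdc1, RCP1, LOC100273311, LOC103652891 and lox1, and by little for LOC100284707.

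Over all 165 genes replicate 4 was most often the highest library (62 genes, 37.6%) and replicate 3 most often the lowest (72 genes, 43.6%). For genes of 100 to 500 CPM replicate 4 was highest in 26.8% and replicate 3 lowest in 36.1%. In 7 of the 165 (4.24%) 1 library lay apart from the other 3 by the gap-to-range ratio, against a background of 5.27% of tested genes and 5.67% of those of 100 to 500 CPM. Genes of 1 library share its total and its RNA, so these counts describe the libraries and were not tested.

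Reads divided between genes touch this set. Of the 165 genes, 51 (30.9%) had a value that is not whole in 1 library or more, within a tolerance of 0.001, against 11.3% of the 32260 genes with a count. The shares were not compared at equal counts, so no reading of the difference is given. These 51 genes took 3.78 ± 0.0135% of counts. An older gene identifier shared with another gene was found for 5 of the 165. The neighbours LOC103635497 and LOC103635498 (elfa7) stood at 645, 645, 583 and 636 CPM and 528, 549.7, 495 and 526 CPM. Both were lowest in replicate 3, as were 43.6% of all 165 genes. Neither had a value that is not whole or a shared older identifier.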

How the data were processed

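The deposited values are unnormalized estimated counts, 1 column per replicate, keyed by NCBI gene ID. The submitters' processing notes name HTSeq, STAR 2.7.10b, Trimmomatic (0.36 and 0.39), deepTools, UMI-tools and SAMtools without their roles. The build, use of strand and handling of shared reads are not stated in these sources. Names and neighbours come from RefSeq genes for Zm-B73-REFERENCE-NAM-5.0, in which all 165 genes matched. CPM uses column sums. For the tests counts were rounded and filtered with filterByExpr in edgeR 4.0.16 (R 4.3.3), leaving 22752 genes scaled by TMM. DESeq2 1.42.0 was an alternative. Tests were tried on simulated data. The extra spreads planted there were larger than any in the set, so the trial does not show how well smaller ones are found.

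The genes and class lists were chosen with earlier results of these data known. The class lists were written as name stems and turned into exact patterns after levels had been seen. Named by rule were the 10 highest genes, the 2 highest of each class, the 5 of highest and lowest CV, the 10 of smallest p, noncoding genes, genes at the limits and genes with 1 library apart. Other genes were named after their values were seen. The values of 1 gene are not reported here. Intervals from counts cover counting error only.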

Additional observations from a re-analysis of the deposited data

Results flagged for a closer look

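A library stood apart from the other 3, with a gap to its nearest neighbour of its range above Dixon's 95% critical value, for 7 of the 165 genes (4.24%). The background was 5.27% of 22752 tested genes, and chance flags about 1 in 20. How the flagged genes of the whole table divide between the libraries was not counted. Replicate 3 was apart for 5 of the 7. It was high for LOC100285357 (838 against a mean of 729.8 CPM in the others), LOC100283035 (687 against 599 CPM), LOC100284707 (740.2 against 562 CPM) and tif-4A3 (LOC542348, 691 against 675 CPM), and low for LOC103635497 (583 against 642 CPM). Replicate 4 was high for LOC100502035 (1028 against 991 CPM) and lox2 (676 against 572 CPM). The summed share of the long noncoding RNA genes LOC100192796 and LOC103647713 was 0.110% in replicate 3 against 0.115% in the others, where the genes moved opposite ways.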

How the results depend on the processing

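The number of genes was 147 when every library had to reach the limit, 168 with the 3 dropped genes kept in (chosen after seeing the data), and 164 to 167 with a replicate left out, of which 160 to 163 were among the 165. Their share of counts was 10.9% under the limit in every library, 8.06% without genes whose values are not whole and 12.04% with the 3 dropped genes kept in, against 11.8%. These follow from fewer or more genes being summed. It was 11.8 to 11.9% with a replicate left out. The median CV was 2.84 to 3.96% with a replicate left out, lowest without replicate 3. Genes varying beyond counting error numbered 123 to 148 with a replicate left out and 106 without genes whose values are not whole. The number spreading beyond the abundance trend was 0. It was 5 with the count filter dropped and 3 by DESeq2, and ran from 0 to 2 when replicates were left out in turn; the cause was not tested. The other planned settings that were run changed no direction and no call count by over 1.5 times. Levels of the 54 genes named by rule, recomputed with TMM factors (also chosen after seeing the data), moved by less than 1 SD. The factors were 0.996 to 1.0045, so they could hardly move a mean, and little follows from this. No paired analysis was possible because there is 1 group. Protein families and promoter motifs were planned and not run, as no sequences were at hand. Counting error at these depths has a median CV of 0.768%.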
